A study of Mus musculus and Rattus norvegicus with 18 samples.

Results

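The genes described here are 8 members of the tumour necrosis factor (TNF) superfamily, followed in mouse hearts and in a rat heart cell line after loss of Mettl1. They are the ligands Tnfsf18 and Tnfsf12 and the receptors Eda2r, Tnfrsf12a, Tnfrsf10b, Tnfrsf1a, Tnfrsf1b and Tnfrsf21, found by symbol. Tnfsf18, Eda2r and Tnfrsf12a had been picked because they rose in the knockout heart, so all their heart values are given as a description with no test. The other 5 members were tested in the heart, and every member with enough reads was tested in the cell line. All 8 were listed among the 55487 genes of the heart RNA table and among the 17866 genes of the heart footprint table, and all 8 passed the filter on low counts in both. In the rat table of 32883 genes 7 members were listed and 6 passed the filter. Tnfrsf10b was not analysed in the rat cells, and Tnfrsf21 had 0 reads in all 6 rat libraries.

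TNF superfamily ligands are membrane proteins that act as trimers, some of them after shedding from the cell surface, and they bind receptors with cysteine-rich extracellular domains. Receptors with a death domain, such as Tnfrsf1a, Tnfrsf10b and Tnfrsf21, can start caspase activation or NF-kB signalling, whereas Tnfrsf1b, Tnfrsf12a and Eda2r lack that domain and bind TRAF adaptors directly. In striated muscle the ligand TWEAK, encoded by Tnfsf12, acts through its small inducible receptor Fn14, encoded by Tnfrsf12a, and Eda2r, the receptor of the ectodysplasin isoform EDA-A2, is known for its part in muscle wasting and as a p53 target gene.

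The heart libraries came from 4-week-old C57BL/6 mice, labelled Ctrl or M1cKO, a conditional knockout of Mettl1, which encodes the catalytic subunit of a tRNA guanosine methyltransferase. The Cre driver, the deleted part of the gene and the genotype of the controls beyond Ctrl are not given in the sources used here. RNA-seq gave 2 Ctrl and 2 cKO libraries, and Ribo-seq, which sequences the mRNA fragments protected by ribosomes (footprints), counted 2 and 2. The cell line is H9C2, myoblasts grown from embryonic rat heart and labelled Sprague-Dawley, with 3 wild-type (WT) libraries and 3 from 1 CRISPR-Cas9 line with a Mettl1 frameshift (M1-null). A difference of that line and the loss of Mettl1 cannot be told apart. The labels do not say that replicates came from separate animals or cultures, so the spread behind each p-value is that between libraries and may be technical.

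The libraries held 15052652 to 16844783 counted reads in heart RNA, 25171650 to 39675627 footprints, and 90321496 to 94202947 reads in H9C2. Levels are counts-per-million (CPM) values scaled with TMM factors, and a gene was called changed at an adjusted p under 0.05 in edgeR's quasi-likelihood test. Mettl1 RNA was 4.31 and 3.76 CPM in the Ctrl hearts and 2.49 and 2.52 CPM in the cKO hearts (log2 fold change -0.69, SE 0.24, edgeR adjusted p = 0.0664). Its footprints were 6.28 and 6.62 CPM in Ctrl and 2.22 in both cKO libraries (log2 fold change -1.54, adjusted p = 1.0e-04 in edgeR). In H9C2 it went from 16.2 ± 0.503 to 4.25 ± 0.488 CPM (SD, n = 3). The 10 cardiomyocyte markers summed to between 51793 and 56474 CPM in the heart RNA libraries, whereas in H9C2 they summed to at most 46.4 CPM and the markers Myl2, Myl3 and Ryr2 had 0 reads.

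The 250 bases before the start site are printed for the 3 picked genes, because these are the members whose RNA was several-fold higher in the cKO heart. They come from the RefSeq promoter table for GRCm38.p6, which held 6 of the 8 members and 32851 promoters in all. Capitals mark a TATA box (TATAAA), a GC box (GGGCGG, or CCGCCC on the other strand) and an MCAT element, a muscle promoter motif (GGAATG, or CATTCC on the other strand).
Tnfsf18, chr1:161494407-161494656, plus strand: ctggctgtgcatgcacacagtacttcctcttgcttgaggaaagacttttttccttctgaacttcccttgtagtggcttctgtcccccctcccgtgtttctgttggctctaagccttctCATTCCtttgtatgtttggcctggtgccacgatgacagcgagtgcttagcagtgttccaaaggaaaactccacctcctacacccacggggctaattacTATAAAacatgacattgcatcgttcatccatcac
Eda2r, chrX:97377210-97377459, minus strand: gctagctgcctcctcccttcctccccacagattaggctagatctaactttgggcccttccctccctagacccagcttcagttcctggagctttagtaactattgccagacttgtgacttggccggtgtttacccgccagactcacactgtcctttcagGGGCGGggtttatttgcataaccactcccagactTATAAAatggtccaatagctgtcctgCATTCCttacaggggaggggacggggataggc
Tnfrsf12a, chr17:23677450-23677699, minus strand: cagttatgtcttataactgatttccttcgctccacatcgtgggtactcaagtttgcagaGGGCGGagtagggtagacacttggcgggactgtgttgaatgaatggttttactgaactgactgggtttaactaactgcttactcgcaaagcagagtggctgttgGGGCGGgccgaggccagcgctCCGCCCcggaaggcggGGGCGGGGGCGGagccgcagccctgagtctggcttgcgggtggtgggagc
The Tnfsf18 sequence held a TATA box at position -34 and an MCAT element at -132, counted back from the start site. Eda2r had a TATA box at -58, a GC box at -92 and an MCAT element at -32, counted from the start in the promoter table. That start lies inside the gene record used for the position given further on, so that 25 bases of the Eda2r window fall within the record. Tnfrsf12a had 5 GC boxes and an E-box (CANNTG, not in capitals) and neither of the other motifs. Of all promoters of this length, 12.4% held the TATA box, 32.7% the GC box, 12.6% the MCAT element and 66.2% an E-box, with both strands searched. The AP-1 site (TGANTCA), found in 6.75% of promoters, and the CArG box, NF-kB site and single repeat unit of the p53 site, found in 1.47%, 7.25% and 7.13%, had no match in these 3 windows. The other members in the promoter table, none called in the heart, also lacked these sites and had no TATA box. Among them Tnfrsf1b held 2 MCAT elements, 2 GC boxes and an E-box, Tnfrsf21 a GC box and an E-box, and Tnfrsf1a none of these. The MCAT element and GC box were thus not particular to the picked genes. The G and C content was 48.4% for Tnfsf18, 53.2% for Eda2r and 58.8% for Tnfrsf12a, with a median of 52.4% over all promoters. A match here is a string of letters and was not tested as a site.

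Tnfsf18, located at chr1:161494657-161505290 (GRCm38.p6, as are the positions that follow), encodes GITRL, the ligand of the T cell receptor GITR. Its RNA was close to the detection limit in the Ctrl hearts, with 1 and 7 reads, and reached 86 and 70 reads in the cKO hearts, or 0.0644 and 0.446 CPM against 4.97 and 4.52 CPM. Footprints showed the same order, with 1 and 7 in Ctrl and 308 and 234 in cKO, or 0.0416 and 0.213 CPM against 7.69 and 6.75 CPM. Both cKO libraries were far above both Ctrl libraries in each assay. From the summed counts the cKO level was 18.6 times the Ctrl level in RNA and 51.7 times in footprints, a description of the values that picked the gene. The fitted log2 fold changes were 4.17 (SE 0.43) in RNA and 5.66 (SE 0.38) in footprints, and each rests on 8 control reads. Without Ctrl replicate 2, which holds 7 reads in each assay, they became 6.04 in RNA and 7.31 in footprints, and without Ctrl replicate 1 they became 3.40 and 5.07.

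The rule that picked Tnfsf18 used the heart and not H9C2, although the members were chosen with earlier results of these data known. In H9C2 Tnfsf18 was higher without Mettl1. The WT libraries held 57, 73 and 98 reads and the M1-null libraries 159, 151 and 145, so the groups did not overlap. The level went from 0.844 ± 0.217 to 1.60 ± 0.0608 CPM (SD, n = 3). The ratio from the summed counts was 1.90, with an exact 95% counting interval of 1.61 to 2.23 that covers counting error only. The log2 fold change was 0.92 (SE 0.24, adjusted p = 0.0214 in edgeR). The call was lost when WT replicate 1 or any 1 of the 3 M1-null replicates was left out (adjusted p = 0.0622 without the former, and 0.0738, 0.0665 and 0.0612 without M1-null replicates 1, 2 and 3). The receptor of this ligand, Tnfrsf18, was at 0.673 CPM in Ctrl and 0.847 CPM in cKO heart RNA (log2 fold change 0.34, edgeR adjusted p = 0.695) and had 0 reads in H9C2.

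Tnfsf12 (chr11:69686240-69696098), the gene of TWEAK, showed no change that passed the test. Its heart RNA was 7.72 and 7.64 CPM in Ctrl and 8.04 and 7.95 CPM in cKO (log2 fold change 0.06, SE 0.15, edgeR adjusted p = 0.852). Footprints on its coding frame of 249 codons were few, at 5 and 9 in Ctrl and 10 and 7 in cKO. The frame with the most footprints was a frame of 37 codons downstream of it, with 7 and 13 against 6 and 14 (log2 fold change -0.35, SE 0.66, edgeR adjusted p = 0.788). With 20 footprints in each group on this frame, the counting interval of the cKO to Ctrl ratio ran from 0.39 to 1.49. It covers counting error only and not the spread between libraries. A change within these bounds was thus not detectable at this depth, and a somewhat larger one is not excluded. The interval does not apply to the coding frame. In H9C2 the level was 25.2 ± 1.21 CPM in WT and 26.7 ± 1.33 CPM in M1-null (SD, n = 3; log2 fold change 0.08, edgeR adjusted p = 0.452). The mouse gene overlaps the read-through gene Tnfsfm13 and the antisense gene Tnfsf13os. No source used here says how reads shared with them were counted, so the Tnfsf12 values are uncertain.

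**Figure D1:**
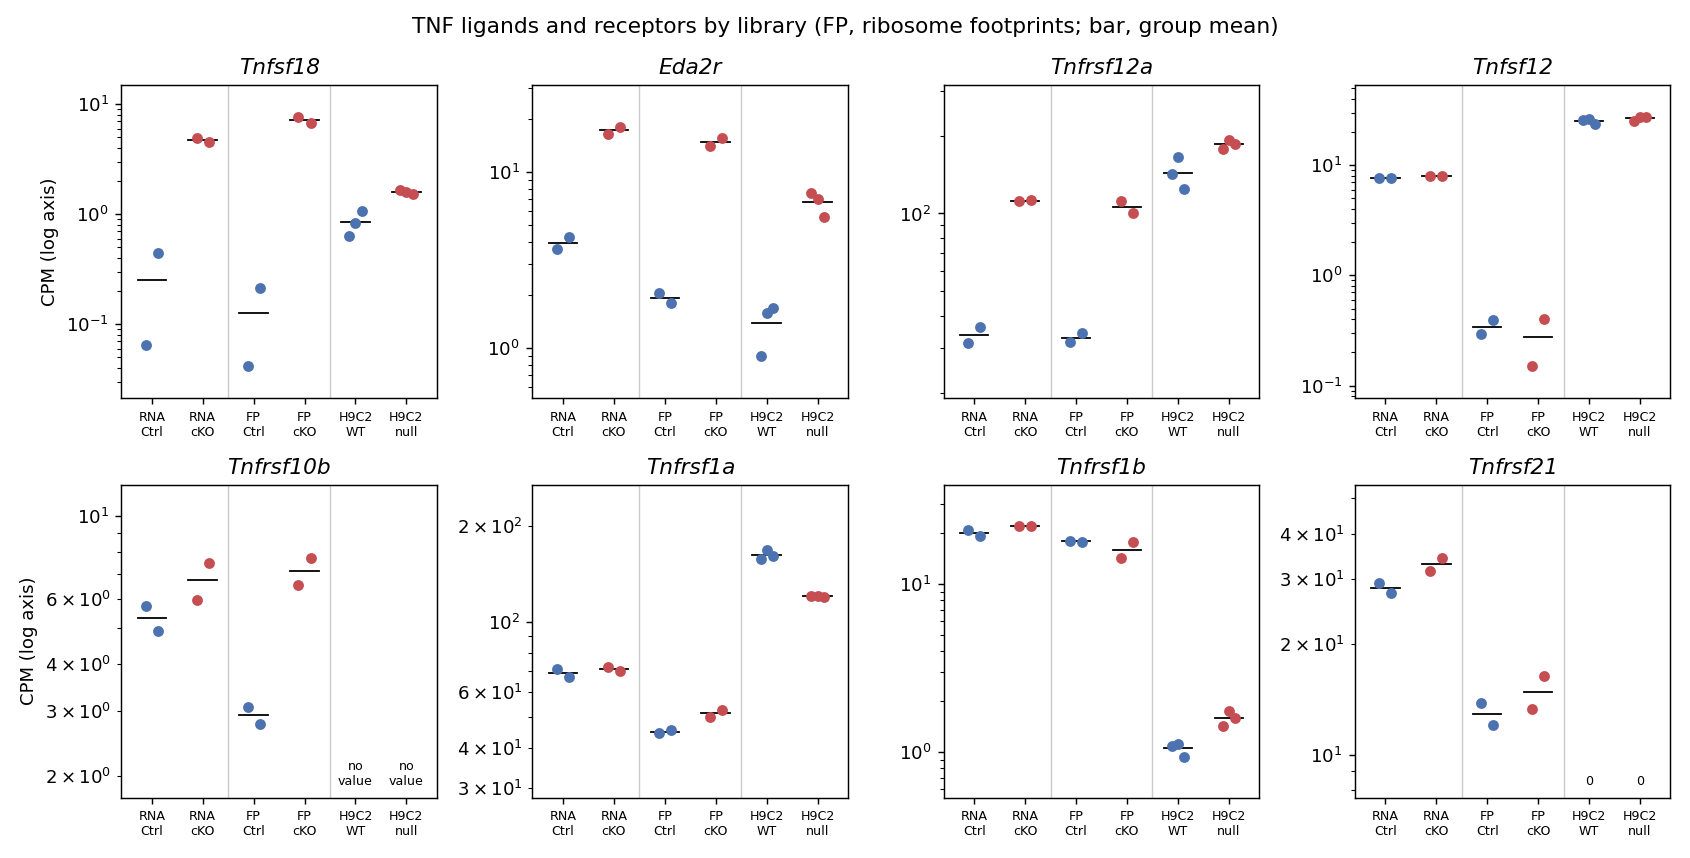
Level of each of the 8 genes in every library, as CPM on a log axis that differs between panels (blue, Ctrl or WT; red, cKO or M1-null; black bar, group mean; FP, ribosome footprints of the frame with the most footprints). Tnfsf18 is at 0.0644 and 0.446 CPM in Ctrl and 4.97 and 4.52 CPM in cKO heart RNA, while Tnfrsf1a overlaps between the heart RNA groups and is lower in all 3 M1-null libraries; 0 marks a gene with no reads and the other gap a gene not analysed in H9C2.

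Eda2r lies on chrX:97333837-97377234. Heart RNA held 57 and 67 reads in Ctrl and 286 and 279 in cKO, or 3.67 and 4.26 CPM against 16.5 and 18.0 CPM. Footprints on its frame of 297 codons numbered 49 and 59 in Ctrl and 568 and 545 in cKO, or 2.04 and 1.79 CPM against 14.2 and 15.7 CPM. The cKO libraries stood above the Ctrl libraries in both assays, and the ratio was larger in footprints. The log2 fold change was 2.12 (SE 0.15) in RNA and 2.97 (SE 0.17) in footprints. The ratio of footprint CPM to RNA CPM went from 0.483 in Ctrl to 0.865 in cKO, where the median over all genes was 0.80 and 0.808. Each CPM is scaled within its own assay, so this is not a ratio of read counts. Its interaction of genotype and assay, the log2 change in translational efficiency, was 0.83 (SE 0.24). This value has no test, so the RNA and footprint responses of Eda2r were not shown to differ.

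In H9C2, whose libraries the rule for Eda2r did not use, the gene had the largest log2 fold change of the 6 members tested there. WT libraries held 81, 138 and 154 reads and M1-null libraries 725, 664 and 523, with no overlap. The level rose from 1.38 ± 0.420 to 6.73 ± 1.05 CPM (SD, n = 3), 2.28 on the log2 scale (SE 0.24, edgeR adjusted p = 2.4e-04). It stayed called under all 13 alternatives, with log2 fold changes from 2.05 to 2.44. Eda, the gene of its ligand, was at 6.40 CPM in Ctrl and 6.03 CPM in cKO heart RNA (edgeR adjusted p = 0.807), and at 4.67 CPM in WT and 3.97 CPM in M1-null H9C2 (adjusted p = 0.248 in edgeR). The Eda2r record contains the pseudogene Gm18111, and no source used here says how its reads were counted.

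Footprints were also counted on 2 short frames upstream of the Eda2r coding frame. The frame of 17 codons held 2 and 7 footprints in Ctrl and 50 and 40 in cKO, and the frame of 11 codons held 1 and 0 in Ctrl and 4 and 24 in cKO. The first of these took 7.63% of the gene's footprints in Ctrl and 7.31% in cKO, so its share stayed close while its count was higher. The frame of 11 codons took 0.847% and 2.27%, and most of its cKO footprints came from 1 library.

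Tnfrsf12a (chr17:23675445-23677449), the gene of Fn14, had the highest footprint density of the 8 in both genotypes. Heart RNA was 31.5 and 36.2 CPM in Ctrl and 111.5 and 113.0 CPM in cKO. Footprints were 31.5 and 34.2 CPM in Ctrl and 111.7 and 100.3 CPM in cKO. RNA and footprints moved by nearly the same factor, with log2 fold changes of 1.73 (SE 0.08) and 1.69 (SE 0.09) and a change in translational efficiency of -0.06 (SE 0.13). The ratio of footprint CPM to RNA CPM went from 0.972 to 0.944. The gene overlaps Hcfc1r1, and without a stated strand setting reads of both genes cannot be told apart where they overlap.

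In H9C2 Tnfrsf12a was also higher in the M1-null line. The WT libraries were at 142.3, 165.7 and 124.6 CPM and the M1-null libraries at 177.4, 192.5 and 187.1 CPM, which do not overlap. The mean went from 144 ± 20.6 to 186 ± 7.67 CPM (SD, n = 3), a step of 0.36 on the log2 scale (SE 0.10, edgeR adjusted p = 0.0233). Leaving out WT replicate 1 or M1-null replicate 1, 2 or 3 ended the call (adjusted p = 0.0876, 0.0558, 0.0909 and 0.0821 in edgeR).

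Tnfrsf10b (chr14:69767472-69784411) encodes the mouse TRAIL death receptor and is a known p53 target gene. Its RNA was 5.73 and 4.90 CPM in the Ctrl hearts and 5.96 and 7.50 CPM in the cKO hearts, a difference that did not pass the test (log2 fold change 0.33, SE 0.19, edgeR adjusted p = 0.269). Its footprints rose, from 74 and 91 in Ctrl to 262 and 267 in cKO, or from 3.08 and 2.76 to 6.54 and 7.71 CPM (log2 fold change 1.29, SE 0.20, adjusted p = 3.2e-04 in edgeR). It was called under all 13 alternatives, with log2 fold changes from 1.17 to 1.40. The ratio of footprint CPM to RNA CPM went from 0.549 to 1.06. The test of that difference, the interaction of genotype and assay, gave a log2 change of 0.94 (SE 0.27) and did not pass (edgeR adjusted p = 0.249), so the RNA and footprint responses were not shown to differ. Tnfsf10, the gene of the ligand TRAIL, was at 17.9 CPM in Ctrl and 18.6 CPM in cKO heart RNA (edgeR adjusted p = 0.825).

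Tnfrsf1a (chr6:125349723-125362483), the death domain receptor of TNF, showed no called change in the heart. RNA was 71.1 and 66.8 CPM in Ctrl and 71.9 and 70.1 CPM in cKO, with overlapping groups (log2 fold change 0.04, SE 0.07, edgeR adjusted p = 0.754). Footprints were 44.7 and 45.5 CPM against 50.2 and 52.8 CPM (0.19 on the log2 scale, SE 0.09, edgeR adjusted p = 0.172). In H9C2 the gene fell. The WT libraries were at 158.0, 168.7 and 161.4 CPM and the M1-null libraries at 120.9, 120.7 and 120.0 CPM, or -0.43 on the log2 scale (SE 0.05, edgeR adjusted p = 3.1e-04), and a range from -0.45 to -0.39 over the 13 alternatives, in all of which it was called. Whether the heart and the cell line differ in this was not tested.

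Tnfrsf1b (chr4:145212368-145246870), the TNF receptor without a death domain, had heart RNA of 21.1 and 19.2 CPM in Ctrl and 22.1 and 22.2 CPM in cKO (log2 fold change 0.14, SE 0.10, edgeR adjusted p = 0.435). Its footprints were 18.1 and 17.8 CPM in Ctrl and 14.3 and 17.8 CPM in cKO (log2 fold change -0.17, SE 0.13, edgeR adjusted p = 0.437). In H9C2 it was rare, with 98, 98 and 86 reads in WT and 137, 164 and 150 in M1-null. The level there was 1.05 ± 0.0972 and 1.59 ± 0.153 CPM (SD, n = 3), and the difference of 0.60 on the log2 scale (SE 0.19) missed the threshold (edgeR adjusted p = 0.052). It passed without TMM factors, on library totals alone (adjusted p = 0.0395) and with a filter of 50 counts (0.0461). The shared ligand Tnf had a mean of 0.223 CPM in Ctrl and 0.194 CPM in cKO heart RNA, too low to pass the filter, and Lta had 0 reads in the Ctrl libraries.

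Tnfrsf21 (chr17:43016555-43089188) encodes death receptor 6. Heart RNA was 29.4 and 27.6 CPM in Ctrl and 31.7 and 34.4 CPM in cKO, which did not pass (log2 fold change 0.21, SE 0.09, edgeR adjusted p = 0.141) except with library totals (adjusted p = 0.0398). Footprints on the frame of 655 codons overlapped, at 13.8 and 12.1 CPM against 13.3 and 16.4 CPM (log2 fold change 0.20, edgeR adjusted p = 0.369). The gene also had 2 short frames near its start. The frame of 86 codons, which begins upstream of the coding frame and ends within its span, held 69 and 70 footprints in Ctrl and 61 and 59 in cKO, or 15.0% and 9.02% of the gene's footprints. The upstream frame of 48 codons held 24 and 34 in Ctrl and 60 and 50 in cKO, or 6.26% and 8.26%. These shares were not tested. In H9C2 the count of 0 allows up to 3 reads a group, or 0.0111 CPM in WT and 0.0106 CPM in M1-null.

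**Figure D2:**
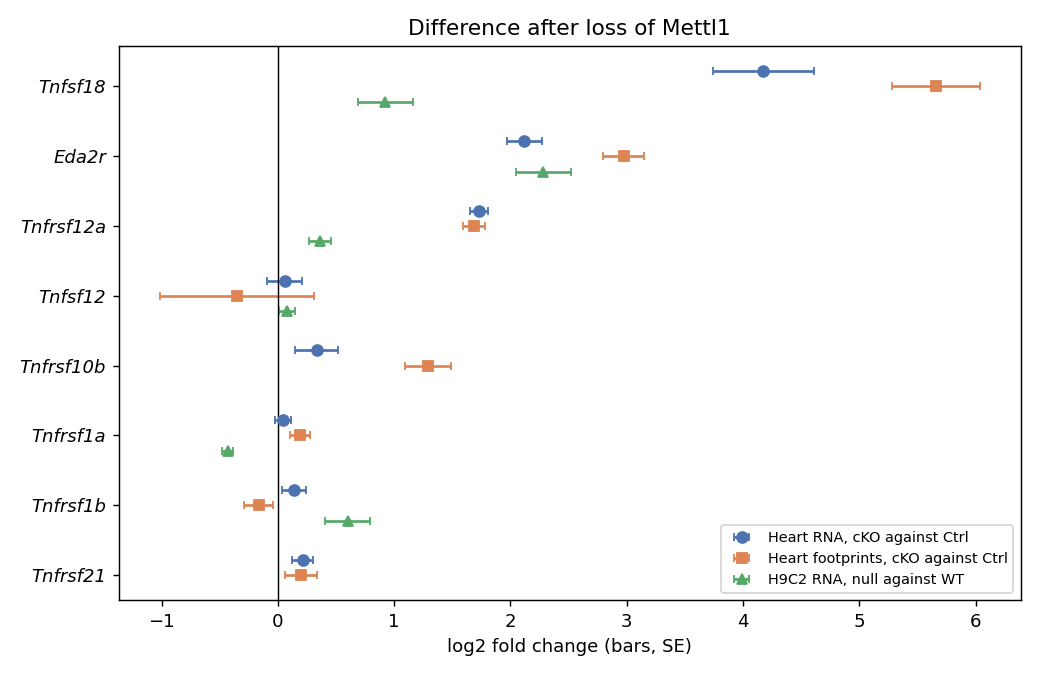
Log2 fold change of each gene (points) with its standard error (bars) in heart RNA, heart footprints and H9C2 RNA; the heart values of Tnfsf18, Eda2r and Tnfrsf12a are a description, since they chose these genes. Eda2r stands at 2.12, 2.97 and 2.28, and for Tnfrsf10b the footprint value of 1.29 lies above the RNA value of 0.33.

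In heart RNA 8.16% of 14088 genes tested were called up and 14.4% were called in either direction. The 3 picked genes are left out of the heart counts that follow. Of the other 5 members 0 were called in heart RNA by edgeR, DESeq2 or limma-voom, and 1, Tnfrsf21, had an unadjusted p under 0.05. In 4 of these 5, namely Tnfsf12, Tnfrsf10b, Tnfrsf1b and Tnfrsf21, both cKO libraries lay above both Ctrl libraries, against 27.8% of all genes tested, and 0 of 5 had both below, against 27.2%. Over all genes 6.26% were called down. In footprints 1 of these 5, Tnfrsf10b, was called up, where 9.11% of 13514 genes were called up, 7.33% down and 16.4% in either direction. Both cKO footprint libraries lay above both Ctrl libraries for 2 of the 5, Tnfrsf10b and Tnfrsf1a, and below for 1, Tnfrsf1b, against 28.7% and 27.1% of all genes. In H9C2 3 of 6 members were called up and 1 down, and the background was 13.6% up and 11.5% down of 14801 genes, or 25.1% in all. The 3 M1-null libraries lay above the 3 WT libraries for 4 of the 6 and below for 1, against 22.8% and 19.8% of all genes. The median log2 fold change of the 6 was 0.48 beside 0.00 over all genes.

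None of the 5 tested members was called for translational efficiency by edgeR, where 0.126% of 12662 genes were called. Tnfrsf10b alone among them had an unadjusted p under 0.05, and DESeq2 called 0 and gave no adjusted p for 3 of the 5. With RNA and footprint libraries of the same number paired as a block, 48 genes were called up and 86 down in place of 9 and 7, and the 5 members were again not called (edgeR adjusted p = 0.0946 for Tnfrsf10b). The other interaction values were -0.45 (SE 0.54) for Tnfsf12, 0.13 (SE 0.11) for Tnfrsf1a, -0.32 (SE 0.17) for Tnfrsf1b and -0.03 (SE 0.17) for Tnfrsf21. For Tnfsf18 it was 1.45 (SE 0.88), a standard error set by the 8 control reads of each assay. The ratio of footprint CPM to RNA CPM was lowest for Tnfsf12, at 0.0446 in Ctrl and 0.0346 in cKO, at percentile 2.15 of the genes tested in Ctrl. These ratios and the interaction of Tnfsf12 use the frame of 37 codons downstream of its coding frame. On the coding frame of 249 codons the ratios were 0.0313 and 0.0283.

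Footprints per length allow the levels of the members to be compared with each other. In footprint CPM per 1000 codons of the longest frame, the Ctrl order was Tnfrsf12a at 255 ± 15.0 (SD, n = 2, as for the values that follow), Tnfrsf1a at 99.3 ± 1.26, Tnfrsf1b at 37.9 ± 0.459 and Tnfrsf21 at 19.7 ± 1.89. Tnfrsf10b at 7.66 ± 0.583 and Eda2r at 6.45 ± 0.586 came next, close to each other but with libraries that did not overlap. The ligands Tnfsf12 at 0.966 ± 0.186 and Tnfsf18 at 0.747 ± 0.711 were lowest and did not differ beyond their spread.

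The order changed in the cKO hearts. Tnfrsf12a at 821 ± 62.4 and Tnfrsf1a at 113 ± 4.03 kept the highest places. Eda2r at 50.4 ± 3.69 and Tnfsf18 at 42.5 ± 3.89 now stood above Tnfrsf1b at 33.8 ± 5.18. Tnfrsf21 at 22.7 ± 3.28 and Tnfrsf10b at 18.7 ± 2.16 had neighbouring libraries at 20.4 and 20.2, and Tnfsf12 at 0.907 ± 0.135 was lowest. On this scale Tnfsf18 lay below the 6 receptors in Ctrl and above 3 of them in cKO, a description that follows from how it was picked.

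**Figure D3:**
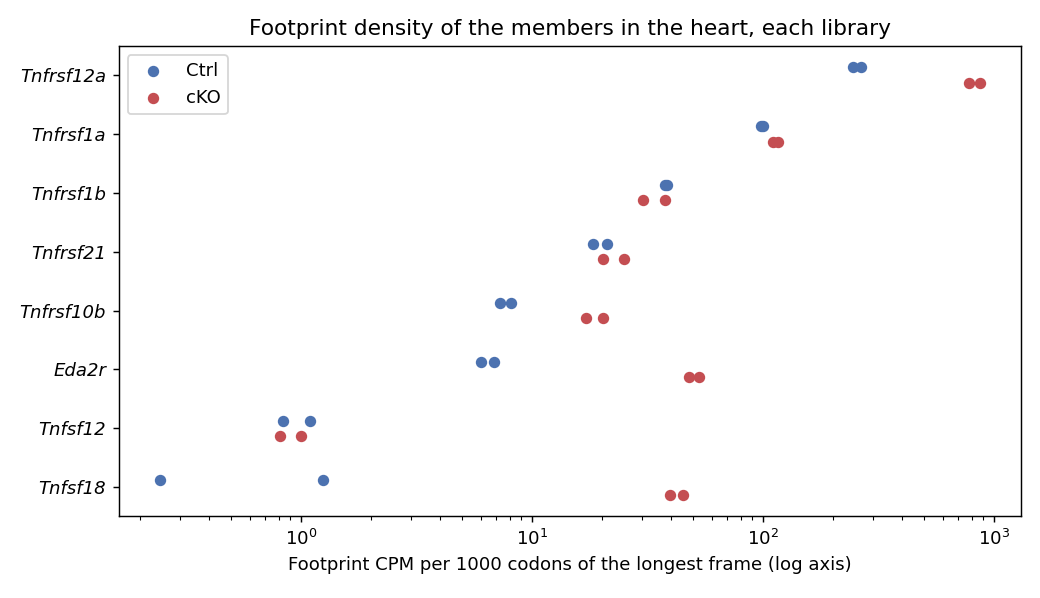
Footprint CPM per 1000 codons of the longest frame, on a log axis, for each heart library (blue, Ctrl; red, cKO). Tnfsf18 and Eda2r shift furthest, Eda2r from a mean of 6.45 to 50.4, while both groups of Tnfsf12 lie near 1.

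By the distance of log2(CPM + 0.5) minus the Ctrl mean over the 8 heart libraries, the genes most like Tnfsf18 were Mt3, a metallothionein (distance 0.511), Nppa, the gene of atrial natriuretic peptide (1.26), and Aqp8, a water channel (1.29), where the median distance over all genes was 6.57. Mt3 RNA was at 0.16 CPM in Ctrl and 4.17 CPM in cKO, and Nppa went from 66.4 to 803.1 CPM. Closest to Eda2r were Phlda3, a p53 target that restrains Akt (0.572), Gm31678 (0.631) and Slc9a3, a sodium-proton exchanger (0.658), beside a median of 4.75. Phlda3 RNA went from 14.2 to 58.6 CPM. The genes most like Tnfrsf12a were Pcbd1, a pterin dehydratase (0.323), Slc17a7, a glutamate transporter of vesicles (0.331), and Sntb1, a syntrophin (0.406), with a median of 3.43. These genes were chosen for the same heart pattern, and the distances have no test.

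Of 16 other TNF family ligands, 5 passed the filter in heart RNA, 3 in footprints and 4 in H9C2, and edgeR called 0 in each. At an unadjusted p under 0.05 there were 1 (Tnfsf13b), 0 and 1 (Tnfsf13). DESeq2 and limma-voom called Tnfsf13 down in H9C2 and none of the ligands in the heart. The median log2 fold change of the 5 ligands in heart RNA was -0.28 beside 0.00 for all genes. Over all genes edgeR called 14.4% in heart RNA, 16.4% in footprints and 25.1% in H9C2, in either direction. These shares are the background of each list that follows.

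Among 22 other receptors 15 passed in heart RNA and 1 was called, Ltbr, the lymphotoxin beta receptor, which rose (log2 fold change 0.35, edgeR adjusted p = 0.0083). That call was lost with DESeq2 (adjusted p = 0.0505) and without cKO replicate 2 (0.0694). In footprints 1 of 12 rose, Ngfr, the low-affinity neurotrophin receptor (1.49, edgeR adjusted p = 0.0331), a call lost with DESeq2 (0.0872) and without any 1 library (0.058 to 0.165). In H9C2 1 of 11 rose and 2 fell, close to the 25.1% of all genes called there in either direction. Fas, the receptor of Fas ligand and a p53 target, rose from 24.4 to 50.1 CPM (log2 fold change 1.04, edgeR adjusted p = 1.4e-05), while Tnfrsf11b, the decoy receptor osteoprotegerin (-0.32, adjusted p = 0.00545), and Ltbr (-0.28, adjusted p = 0.00696) fell. In the heart Fas RNA was 20.8 CPM in Ctrl and 20.2 CPM in cKO (edgeR adjusted p = 0.895).

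Of 17 receptor adaptors and ubiquitin enzymes tested in heart RNA, edgeR, DESeq2 and limma-voom called 0, and 5 had an unadjusted p under 0.05. In footprints 1 of 17 rose, Otulin, a deubiquitinase of linear chains (0.42 on the log2 scale, edgeR adjusted p = 0.0207), and 1 fell, Traf2, an adaptor that binds TNF receptors (-0.36, adjusted p = 0.0377). Over all genes 16.4% were called in footprints and 25.1% in H9C2, so neither count for this list, here or in H9C2, is above the background. The Otulin call was lost without Ctrl replicate 2, cKO replicate 1 or cKO replicate 2 (adjusted p = 0.111, 0.0952 and 0.118). The Traf2 call was lost with library totals (adjusted p = 0.0901), DESeq2 (0.0759) and without Ctrl replicate 1, cKO replicate 1 or cKO replicate 2 (0.133, 0.166 and 0.171). In H9C2 3 of 17 rose, Traf4 (0.53, edgeR adjusted p = 3.5e-04), the deubiquitinase Cyld (0.44, adjusted p = 0.00294) and Traf3 (0.47, adjusted p = 0.0311), and Traf7 fell (-0.26, adjusted p = 0.00562). Traf3 was lost with a filter of at least 1 count (0.0534) and without WT replicate 1 or M1-null replicate 1, 2 or 3 (0.109, 0.116, 0.0897 and 0.0716).

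NF-kB signalling genes, 16 in number, gave 0 calls in heart RNA by edgeR, DESeq2 and limma-voom, with 3 at an unadjusted p under 0.05. In footprints 3 of 16 rose. They were Ikbkg, the regulatory subunit of the IkB kinase complex (0.46, edgeR adjusted p = 0.00334), Nfkb2, the precursor subunit of the non-canonical pathway (0.32, adjusted p = 0.0269), and Map3k14, the NIK kinase of that pathway (0.68, adjusted p = 0.0463). Ikbkg was lost without cKO replicate 1 (adjusted p = 0.106), Nfkb2 without Ctrl replicate 1, cKO replicate 1 or cKO replicate 2 (0.0852, 0.308 and 0.0738), and Map3k14 with DESeq2 (0.115) and without any 1 library (0.0554 to 0.225). In H9C2 Map3k7, the TAK1 kinase, rose (0.31, edgeR adjusted p = 0.00867) and Nfkb1 fell (-0.34, adjusted p = 0.00429), 1 each of 16. The median log2 fold change was -0.02 in heart RNA, 0.02 in footprints and -0.03 in H9C2. Over all genes 16.4% were called in either direction in footprints and 25.1% in H9C2, close to or above the shares of this list. The 3 footprint calls were all up, where 9.11% of all genes were called up.

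Of 14 NF-kB target genes tested in each comparison, edgeR called 1 up in heart RNA, 1 in footprints and 5 in H9C2, and called 0 down. The background was 8.16%, 9.11% and 13.6% of all genes called up, so the heart counts are near it. DESeq2 called 0 down in each, and limma-voom called 1 down in H9C2, Bcl3, an atypical IkB protein. In heart RNA this was the chemokine gene Cxcl10 (0.448 CPM in Ctrl and 1.29 CPM in cKO, edgeR adjusted p = 0.0346), a call lost with DESeq2 (0.253) and without any 1 library (0.127 to 0.198). In footprints it was the adhesion molecule Vcam1 (0.47, edgeR adjusted p = 0.00187). In H9C2 the 5 were Cxcl10 (2.86, adjusted p = 7.0e-04), the monocyte chemokine gene Ccl2 (1.64, adjusted p = 0.00722), Csf1 (0.22, adjusted p = 0.0124), Nfkbia (0.24, adjusted p = 0.0392) and Mmp9 (3.77, adjusted p = 0.0253) in edgeR. Nfkbia was lost with a filter of at least 1 count (0.0573) and without any 1 library (0.0646 to 0.16). Mmp9 was lost with that filter (0.0752) and without WT replicate 2 or M1-null replicate 1, 2 or 3 (0.0512, 0.0639, 0.0719 and 0.113). Its log2 fold change ran from 3.20 to 7.90 over the alternatives, so its size is uncertain. Csf1 was lost without WT replicate 1, M1-null replicate 1 or M1-null replicate 3 (adjusted p = 0.0599, 0.0583 and 0.0579).

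Caspase and necroptosis genes rose in 4 of 15 cases in heart RNA, 3 of 15 in footprints and 4 of 14 in H9C2, and edgeR called 0 down. The background was 8.16%, 9.11% and 13.6% of all genes called up. Among those called in the heart, Bcl2, which blocks mitochondrial apoptosis, rose in RNA (1.01, edgeR adjusted p = 4.3e-04) and footprints (1.59, adjusted p = 0.0106). Its relative Bcl2l1 rose by 0.30 (adjusted p = 0.00881) and 0.41 (adjusted p = 0.0055), and Bid, the caspase-8 substrate that promotes apoptosis, by 1.19 (adjusted p = 0.0157) and 1.34 (adjusted p = 0.00354). The Bid call in RNA was lost with DESeq2 (0.124) and without Ctrl replicate 1, cKO replicate 1 or cKO replicate 2 (0.0628, 0.11 and 0.0626). Bcl2l1 in RNA was lost without Ctrl replicate 2 or cKO replicate 1 (0.0997 and 0.0692) and in footprints without cKO replicate 1 (0.0696), and Bcl2 in footprints without Ctrl replicate 1 or cKO replicate 2 (0.0753 and 0.0679). In H9C2 Bcl2l1 (0.55, adjusted p = 1.0e-04), Mlkl, the effector of necroptosis (0.70, adjusted p = 3.1e-04), and its kinase Ripk3 (0.28, adjusted p = 0.00753) were among those that rose.

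Among the family and pathway lists, cell type markers aside, the p53 target genes had the highest share of calls in each of the 3 comparisons. In heart RNA 7 of 14 rose and 0 fell, in footprints 11 of 15 rose and 0 fell, and in H9C2 8 of 13 rose and 2 fell. Their median log2 fold changes were 0.32, 0.59 and 0.54, beside 0.00 in each comparison for all genes tested. Of all genes 8.16%, 9.11% and 13.6% were called up. Phlda3 rose by 2.05 in RNA and 2.40 in footprints (edgeR adjusted p = 1.8e-09 and 3.6e-10), Aen, an exonuclease, by 1.31 and 1.06, and the cell cycle inhibitor Cdkn1a by 1.06 and 1.09. In H9C2 Mdm2, the ubiquitin ligase of p53, rose by 0.85 (adjusted p = 1.2e-05), Cdkn1a by 0.92 (adjusted p = 1.4e-05) and Gtse1 by 0.61 (adjusted p = 5.5e-05), while Btg2 and Pmaip1 fell by 0.23 each (adjusted p = 0.0357 and 0.0152). Btg2 was lost with library totals (0.0671) and without WT replicate 1, WT replicate 2, M1-null replicate 1 or M1-null replicate 3 (0.103, 0.0578, 0.13 and 0.138), and Pmaip1 without WT replicate 1 or M1-null replicate 3 (0.0717 and 0.0813). Ccng1 and Zmat3 were called up in both heart assays. The Zmat3 calls were lost with DESeq2 (adjusted p = 0.212 in RNA and 0.0812 in footprints). They were also lost in RNA without Ctrl replicate 1 or cKO replicate 1 (0.127 and 0.28) and in footprints without Ctrl replicate 1, Ctrl replicate 2 or cKO replicate 2 (0.0606, 0.131 and 0.215). The Ccng1 call in footprints was lost without cKO replicate 1 or 2 (0.0702 and 0.0731). The list does not hold Eda2r, Tnfrsf10b or Fas.

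Of the muscle atrophy and denervation genes 2 of 11 rose and 1 fell in heart RNA, 1 of 13 rose and 1 fell in footprints, and 3 of 13 rose and 1 fell in H9C2. Over all genes 14.4%, 16.4% and 25.1% were called in either direction. The footprint count is at this background and the H9C2 count is near it, so they are not a result about this list. Fbxo31, a ubiquitin ligase subunit, fell in both heart assays (-0.40 and -0.44, edgeR adjusted p = 4.7e-04 and 0.00152), and Gadd45a, a stress gene, rose in footprints (0.65, adjusted p = 2.9e-04). The ubiquitin ligase Trim63 (0.23, adjusted p = 0.0149) and Foxo3 (0.21, adjusted p = 0.0288) rose in RNA. The Trim63 call was lost with DESeq2 (0.0612) and without Ctrl replicate 1 or cKO replicate 1 (0.0948 and 0.0804), and the Foxo3 call with DESeq2 (0.119) and without any 1 library (0.05 to 0.169). In H9C2 Myog fell (-1.10, adjusted p = 5.3e-05), while Ncam1 (0.40, adjusted p = 0.0214), Musk (0.33, adjusted p = 0.0356) and Chrna1 (2.63, adjusted p = 0.0494) rose. Ncam1 and Musk were lost without WT replicate 1 (0.0794 and 0.1), M1-null replicate 1 (0.0941 and 0.137), replicate 2 (0.0582 and 0.0782) or replicate 3 (0.0523 and 0.0673), and Musk also with a filter of at least 1 count (0.0593). Chrna1 was lost with that filter (0.126) and without any 1 library (0.0584 to 0.163), and its log2 fold change ran from 2.07 to 3.60 over the alternatives.

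Of 5 ectodomain shedding genes edgeR, DESeq2 and limma-voom called 0 in heart RNA and 0 in footprints, with 3 and 1 at an unadjusted p under 0.05. In H9C2 1 of 5 rose, Timp3, the inhibitor of the sheddase ADAM17 (0.83, edgeR adjusted p = 7.8e-04).

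**Figure D4:**
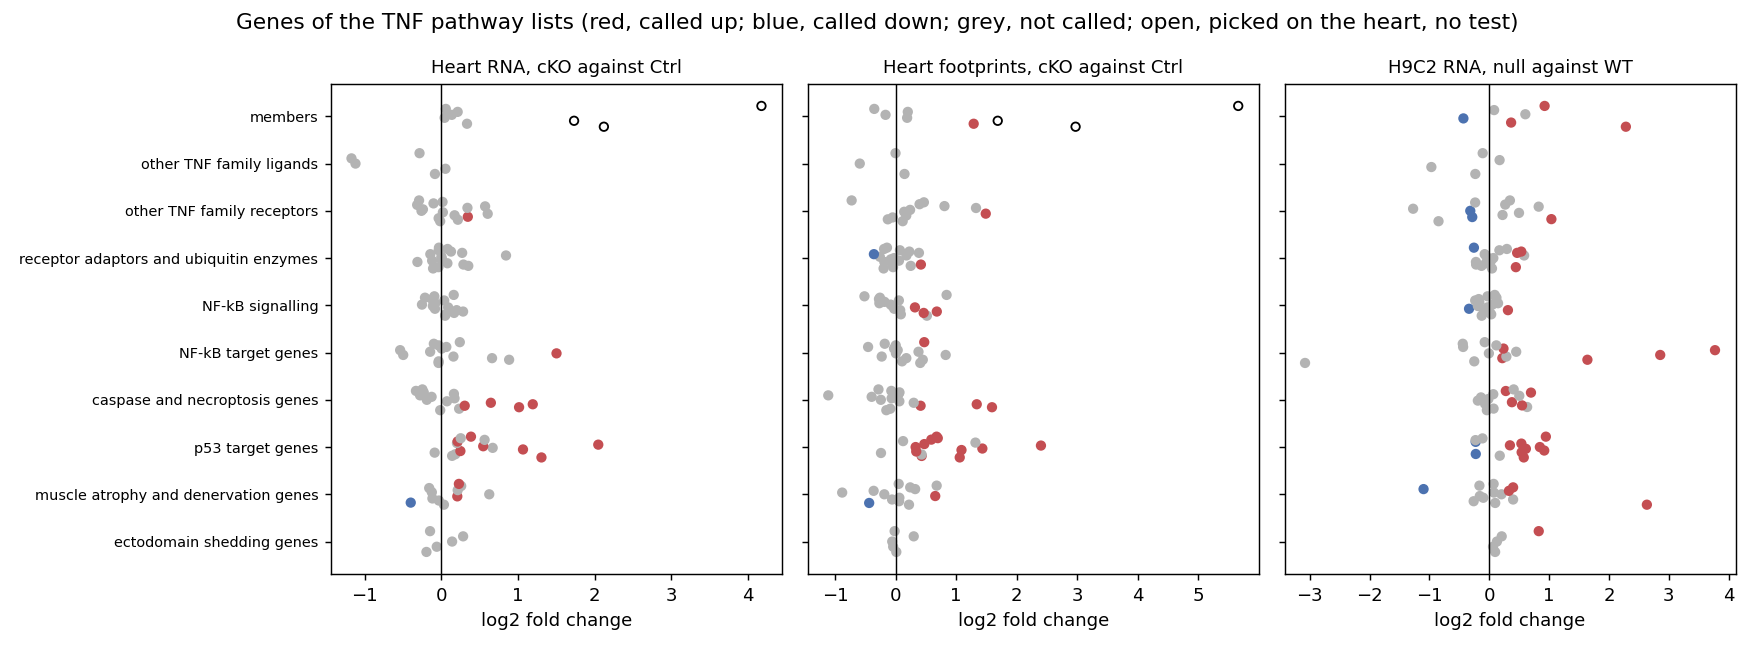
Log2 fold change of every tested gene of each list (1 point a gene) in heart RNA, heart footprints and H9C2 RNA; red points were called up, blue called down, grey not called, and open points are the 3 genes picked on the heart, which have no test there. The p53 target genes hold 7 of 14, 11 of 15 and 8 of 13 genes called up, and the NF-kB signalling genes 0, 3 and 1 of 16.

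Some lists of cell type markers also held called genes. Over all genes 8.16% were called up and 6.26% down in heart RNA, and 9.11% and 7.33% in footprints. A count of 1 in 10 is close to these shares. In heart RNA 5 of 10 cardiomyocyte markers fell and their summed level was 55926 to 56474 CPM in Ctrl and 51793 to 51922 CPM in cKO, with none at 0. In footprints 3 of 10 fell. Endothelial markers fell in 2 of 10 cases in RNA (sum 2063 to 2139.6 against 1906 to 1909.7 CPM) and, in footprints, 1 of 9 rose and 1 fell. Of the smooth muscle and pericyte markers 1 of 10 fell in each assay (1577 to 1593 against 1399 to 1400.0 CPM in RNA), and 1 of 10 fibroblast markers rose in RNA (2219 to 2353 against 2318 to 2471 CPM) and 0 in footprints, with 1 at an unadjusted p under 0.05. Of the 2 skeletal myoblast markers tested Des rose in both assays (list sum 3167 to 3382 against 3821 to 3970.9 CPM in RNA), and Myf6 and Pax7 had 0 reads. The other, Ckm, was not called by edgeR in either assay, and limma-voom called it down in footprints. The list sum in footprints overlapped, at 4884 to 6010 CPM in Ctrl and 5026 to 5140 CPM in cKO. Of the 10 markers only Des and Ckm passed the filter in either assay. Neither list sum is therefore a measure of skeletal myoblasts in these hearts.

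Macrophage markers summed to 755 to 785 CPM in Ctrl and 800.4 to 876.9 CPM in cKO heart RNA, with 0 of 10 called by edgeR, DESeq2 or limma-voom and 4 at an unadjusted p under 0.05. In footprints these were 0 of 9 and 2. Lymphocyte markers summed to 4.26 to 4.63 CPM in Ctrl and 4.33 to 4.92 CPM in cKO, with 0 called of 1 tested in RNA and of 5 in footprints, and unadjusted counts of 0 and 1. The part of these marker differences in the heart values of the TNF family genes was not tested. In these whole hearts, fewer cells of a type and less RNA per cell cannot be told apart.

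In H9C2 some marker lists held called genes too, where 13.6% of all genes were called up and 11.5% down. Skeletal myoblast markers rose in 4 of 6 cases tested, and their sum went from 410.2 to 457.5 CPM in the WT libraries to 591.4 to 620.1 CPM in M1-null, with Myf5, Pax7 and Mymx at 0. Of 4 cardiomyocyte markers tested Pln rose and Tnnt2 fell, and the sum was 40.9 to 46.4 against 31.1 to 34.0 CPM. Fibroblast markers rose in 3 and fell in 3 of 7 cases (9520.5 to 9945 against 7999.8 to 8413 CPM, Tcf21 and Dpt at 0). Smooth muscle and pericyte markers rose in 4 and fell in 3 of 9 (6439 to 7665 against 7101 to 7381 CPM, Rgs5 at 0). Of the endothelial (3 tested, sum 15.0 to 16.8 against 14.0 to 18.8 CPM, Cdh5, Cldn5 and Emcn at 0), macrophage (2 tested, 2.45 to 3.25 against 3.25 to 3.96 CPM, Adgre1 and the C1q genes at 0) and lymphocyte markers (2 tested, 1.07 to 1.87 against 1.32 to 2.34 CPM, 6 of 10 at 0), edgeR, DESeq2 and limma-voom called 0. Lck, a lymphocyte marker, alone among these had an unadjusted p under 0.05. The part of these marker differences in the values of Tnfsf18, Eda2r, Tnfrsf12a and Tnfrsf1a in H9C2 was not tested.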

How the data were processed

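The authors deposited whole-number counts: reads per gene for heart RNA-seq and H9C2, and footprints per open reading frame for Ribo-seq, with no normalization. The unit was read from the values. Per the submitters' processing notes the genome builds were GRCm38 and Rnor_6.0, and the tools named are Bowtie, Bowtie2, cutadapt, HISAT2 and STAR, with featureCounts, DESeq2 and StringTie. Which tool made which table, its version, strand setting and treatment of reads that match several places are not given in the sources used here.

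Symbols came from the table supplied for mouse (55141 of 55487 IDs matched) and from the rat file itself (32487 of 32883). For each gene the frame with the most footprints was kept, and these frames hold 98.9% of footprints. Each comparison was fitted over all genes with edgeR 4.0.16 in R 4.3.3 (glmQLFit and glmQLFTest, TMM factors, filterByExpr, Benjamini-Hochberg, threshold 0.05). Translational efficiency was the genotype by assay interaction in 1 model over the 8 heart libraries. In simulated data with 200 genes changed by 1.5 on the log2 scale, edgeR recovered 200 in heart RNA (13886 genes), 200 in footprints (13340), 200 in H9C2 (14629) and 192 for translational efficiency (14244). Calls outside the changed genes numbered 11, 5, 18 and 15 in the same order. The changed genes were drawn from genes with many reads, and every gene had the same fixed spread. The recovery therefore does not extend to members with few reads or smaller differences. RNA and footprint libraries of 1 genotype share replicate numbers in the labels, and their deviations from the group means correlated at 0.193 in Ctrl and 0.111 in cKO. With 2 libraries a group each correlation rests on 1 contrast, a weak basis for pairing. The numbers were taken to pair the assays only in the blocked alternative and when libraries were left out. The main model of translational efficiency did not use the pairing. The alternatives were DESeq2 1.42.0, limma-voom (limma 3.58.1), other factors and filters, a replicate block, other frames and leaving out each library, and the frame alternative for translational efficiency was added after seeing the data.

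The members, gene lists and tests were chosen with earlier results of these data known. Besides the members, Mettl1 and the partners Tnfrsf18, Eda, Tnf, Lta, Tnfsf10, Traf2 and Map3k14, the text names the 3 genes with the smallest adjusted p of each list and comparison, up to 3 more called in both heart assays, and the 3 genes nearest to each picked member. Where 5 or fewer genes of a list were called, the rest were named after their values were seen. Intervals are exact binomial intervals at 95% for counting error. The 4 tRNA libraries were not used here. One gene of the caspase and necroptosis list is counted but not reported here.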

Additional observations from a re-analysis of the deposited data

Results flagged for a closer look

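Of 46 named genes tested in both heart RNA and H9C2, 6 had every cKO heart RNA library on one side of the Ctrl libraries and every M1-null H9C2 library on the opposite side of the WT libraries. This is 13% of them, close to the 11.6% (1198 of 10369) among all genes with 1 shared symbol tested in both, so the count is not a result about these genes. Ltbr had a log2 fold change of 0.35 in heart RNA and -0.28 in H9C2. Mlkl was at -0.23 in heart RNA and 0.70 in H9C2. Otulin was at 0.29 and -0.22, Mmp9 at -0.54 and 3.77, Ripk3 at -0.33 and 0.28, and Timp3 at -0.15 and 0.83. The H9C2 value of Mmp9 ran from 3.20 to 7.90 over the alternatives. The difference between heart and cell line was not tested, since they are of 2 species counted in separate tables.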

How the results depend on the processing

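On library totals, without TMM factors, 1769 genes were called up and 506 down in heart RNA and 657 down in footprints, against 1150, 882 and 990. DESeq2 called 623 up and 457 down in heart RNA and 36 down for translational efficiency, where edgeR called 9 up and 7 down. The cause was not tested. The median over all genes shifted under library totals by 0.0803 in heart RNA, 0.0733 in footprints and 0.0422 in H9C2.

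Between the genotypes or lines of an assay, same-numbered deviations correlated at 0.0263 in heart RNA, -0.0152 in footprints and 0.000290, 0.124 and -0.162 in H9C2. In H9C2 pairs with different numbers ran from -0.278 to 0.298. With 2 libraries a group each heart value rests on 1 contrast, so it cannot decide whether the numbers pair the libraries. With a replicate block the counts were 1455 up and 1290 down in heart RNA, 1472 and 1255 in footprints, 1748 and 1399 in H9C2, and 48 and 86 for translational efficiency. In the blocked fits Mettl1 in heart RNA had an edgeR adjusted p of 0.0499, while Mmp9, Nfkbia, Btg2 and Chrna1 in H9C2 were at 0.0582, 0.0742, 0.0566 and 0.111. Mettl1 RNA also passed with a filter of at least 1 count (0.0408) or 50 counts (0.0437).

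Leaving out each library in turn gave 634 to 1069 genes up and 521 to 933 down in heart RNA, 667 to 1010 and 481 to 930 in footprints, 1348 to 2345 and 1006 to 2110 in H9C2, and 2 to 5 and 0 to 7 for translational efficiency, with fewer libraries and, in the heart, a lone library assumed to vary like the other group. The lowest heart counts came without cKO replicate 1. Counts moved by over 1.5 times without cKO replicate 1 in heart RNA, without cKO replicate 1 or 2 in footprints, without WT replicate 1 or any M1-null replicate in H9C2, and without any replicate for translational efficiency. For translational efficiency, here and in the counts above, the RNA and the footprint library of the same genotype and number were left out together. Some log2 fold changes turned their sign, given as lowest to highest over the libraries left out. In RNA Tnfrsf1a ran from -0.0036 (without Ctrl replicate 2) to 0.089, and Tnfsf10 from -0.072 (without Ctrl replicate 1; -0.0094 without cKO replicate 1) to 0.19. In footprints Tnfsf12 ran from -1.19 to 0.21 (without cKO replicate 1) and Tnfsf10 from -0.17 (without Ctrl replicate 1) to 0.60. For translational efficiency Tnfrsf21 ran from -0.10 to 0.078 (without cKO replicate 1; 0.012 without Ctrl replicate 1), Tnfsf12 from -1.26 to 0.16 (without cKO replicate 1), Tnfrsf12a from -0.13 to 0.045 (without cKO replicate 2), and Tnfsf10 from -0.12 (without Ctrl replicate 1; -0.063 without cKO replicate 2) to 0.40. The cause was not tested. Tnfrsf12a RNA was at 1.83 without Ctrl replicate 2. Tnfsf12 on its longest frame had too few footprints for a test.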
